A study of Mus musculus with 8 samples.

Results

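Nrf2, the product of Nfe2l2, is a transcription factor that switches on genes against oxidants and reactive chemicals. The group described here was chosen by gene name and holds 10 genes of the 20189 measured: Nfe2l2 itself, its inhibitor Keap1, and 8 genes whose products make or recycle glutathione, thioredoxin and NADPH or break down quinones and haem (Nqo1, Hmox1, Gclc, Gclm, Txnrd1, Srxn1, Gsr and G6pdx). All 10 were in the table. Their RNA was measured in 4T1 cells, a mouse mammary carcinoma line, of wild-type genotype per the labels. One group was given 5 mM acetate for 48 h and the other the vehicle, water, both in medium with serum, with 4 libraries in each. Each acetate library had a vehicle library of the same number, and the study counts the 4 as independent experiments on 1 cell line. Acetate is a source of acetyl-CoA, and the study used it to raise the supply of acetyl groups.

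In resting cells Keap1 holds Nrf2 and passes it to a ubiquitin ligase, so that little of the protein builds up. Oxidants or electrophiles modify Keap1, Nrf2 then escapes to the nucleus, pairs with small Maf proteins and binds antioxidant response elements near its target genes. Because this control acts on the protein, the RNA levels of Nfe2l2 and Keap1 need not follow Nrf2 activity, which is usually read from the target genes. In tumour cells the same targets supply glutathione and NADPH.

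The core of the antioxidant response element is often written TGACNNNGC, with N any base. RefSeq start-site windows on GRCm38.p6, from 250 bases before to 50 after the start, were at hand for 7 of the 10 genes, all except Gclc, Gsr and Hmox1. The letters TGACNNNGC occurred on either strand in the windows of 5 of those 7 genes, against 3781 of 27025 genes with a window (14%). By window the letters were in 5 of 9, since Txnrd1 has 3, against 4071 of 32851 (12.4%). The 4 stretches upstream of a RefSeq start that hold them are given to show where the letters lie. Those of Txnrd1 and G6pdx lie inside the GENCODE gene spans given with the values, since these starts are downstream of the outermost GENCODE start. They run 5′ to 3′ on the strand of the gene, with the match in capitals. A match on the opposite strand reads as GCNNNGTCA.
Nfe2l2, chr2:75704664-75704913, minus strand: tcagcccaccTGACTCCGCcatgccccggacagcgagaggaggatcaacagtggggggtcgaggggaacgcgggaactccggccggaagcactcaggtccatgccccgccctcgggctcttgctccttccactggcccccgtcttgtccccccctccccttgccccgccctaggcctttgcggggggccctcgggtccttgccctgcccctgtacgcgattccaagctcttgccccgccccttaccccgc
Gclm, chr3:122245307-122245556, plus strand: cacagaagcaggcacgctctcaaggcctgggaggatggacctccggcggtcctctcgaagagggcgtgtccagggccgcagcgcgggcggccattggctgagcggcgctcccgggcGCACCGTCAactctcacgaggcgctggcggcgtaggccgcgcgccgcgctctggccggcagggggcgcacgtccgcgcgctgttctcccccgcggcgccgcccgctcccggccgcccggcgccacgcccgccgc
Txnrd1, chr10:82858956-82859205, plus strand: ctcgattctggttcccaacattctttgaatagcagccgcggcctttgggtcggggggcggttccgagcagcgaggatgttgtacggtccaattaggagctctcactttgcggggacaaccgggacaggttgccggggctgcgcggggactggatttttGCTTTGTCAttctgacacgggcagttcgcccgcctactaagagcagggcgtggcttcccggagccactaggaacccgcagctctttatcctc
G6pdx, chrX:74428881-74429130, minus strand: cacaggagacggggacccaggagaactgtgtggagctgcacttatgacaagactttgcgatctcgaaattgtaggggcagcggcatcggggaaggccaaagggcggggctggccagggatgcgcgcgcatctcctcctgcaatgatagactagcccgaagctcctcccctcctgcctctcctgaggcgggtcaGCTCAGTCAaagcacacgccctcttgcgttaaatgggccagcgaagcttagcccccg
The match in Nfe2l2 read forward and began 240 bases before the start, and those in Gclm, Txnrd1 and G6pdx lay on the opposite strand at 134, 92 and 57 bases. Srxn1 had its match 29 bases after the start. In the windows of Keap1 and Nqo1 these letters were not found. A match is only a description of the letters, and nothing in these data measured binding.

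Values are normalised read counts in units of 1 read per 20000000 reads of a library. The libraries held 19.9 to 29.3 M reads (M, mega) over the genes of the table, so 1 unit stood for about 1 read. The lowest member, Nqo1, had 146 to 321 reads per library, and each of the others had at least 294. Epithelial markers (Epcam, Cdh1, Krt8, Krt18 and Krt19, 5 of 5 in the table) summed to 42130.1 to 59632 units in vehicle and 44422 to 60637 in acetate libraries. The leukocyte marker Ptprc was near 0, at 0.68 to 3.02 units. Endothelial Pecam1 and Cdh5 summed to at most 7.06 units. For several of the genes both libraries of replicate 1 stood apart from the others. Without that replicate the same 3 genes passed the blocked limma fit described next as with it, at log2 changes of 0.12 for Nfe2l2, -0.36 for Gclc and -0.20 for Gclm (adjusted p 0.0413, 0.00076 and 0.0094).

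With no term for the replicate number, 0 of the 10 genes passed an adjusted p of 0.05 in limma, and at 0.05 before adjustment there was none either. The same fit called 0 of 20189 genes (0%), with 353 at an unadjusted p under 0.05. On reads recovered from the values, edgeR without the block called 0 genes and DESeq2 called 7, none of them among the 10. With the replicate number as a block, 3 of the 10 passed, 1 higher (Nfe2l2) and 2 lower (Gclc and Gclm). The blocked fit called 5.99% of all genes higher and 2.65% lower, and among the 10292 genes with a mean of at least 100 units, which all 10 reached, it called 15% in either direction. The 10 genes were chosen with earlier results of these data known, so these shares are no test of the group. By direction alone, Nfe2l2 and Gsr were higher with acetate in 4 of 4 pairs, against 16.7% of all genes, and Keap1, Gclc and Gclm were lower in 4 of 4, against 11.4%. Among the 10292 genes with a mean of at least 100 units, 2226 were higher and 1874 lower in 4 of 4. The median log2 change was 0.007 over the 10 genes and 0.018 over all genes, with a range among the 10 from -0.33 to 0.21. In bulk RNA, fewer cells carrying a transcript and less of it per cell cannot be told apart.

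**Figure D1:**
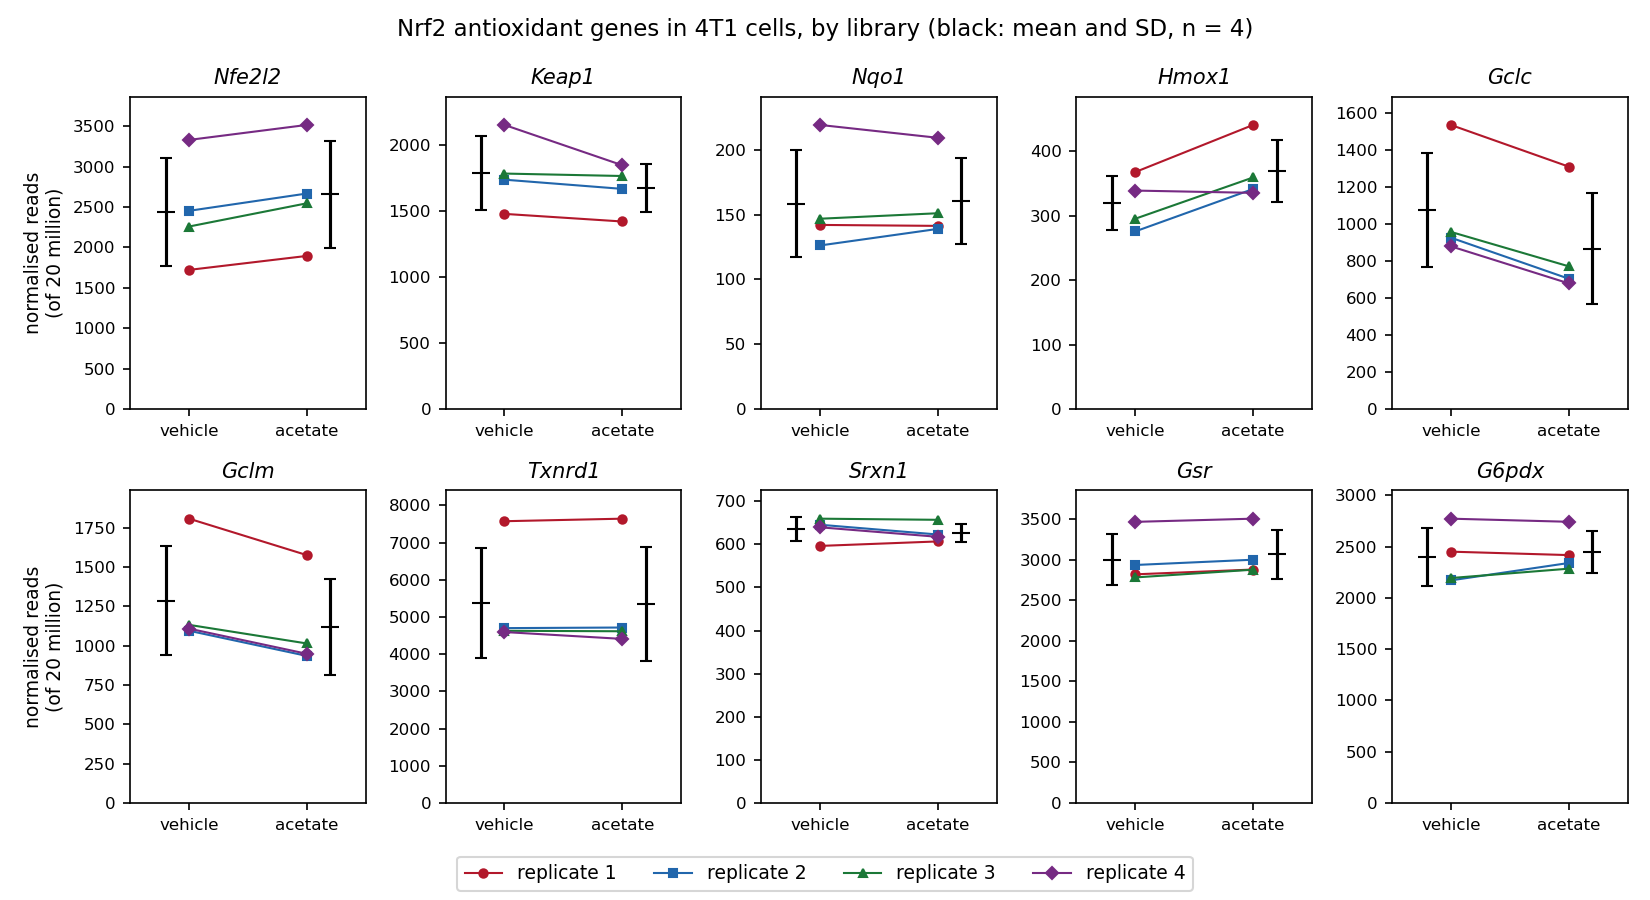
Value of each of the 10 genes (normalised read counts, linear axes from 0) in the 4 vehicle and 4 acetate libraries, with a line joining the libraries of 1 replicate number and black bars for the mean and SD (n = 4). The lines of Gclc and Gclm slope down in all 4 pairs, and for Gclc, Gclm and Txnrd1 replicate 1 lies above the other 3 in both groups.

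The largest change was in glutathione synthesis. Gclc and Gclm encode the catalytic and modifier subunits of glutamate-cysteine ligase, the rate-limiting enzyme of glutathione synthesis. Gclc (ENSMUSG00000032350, GRCm38, chr9:77754535-77794485, plus strand) was at 1538, 928, 959 and 881 units in vehicle replicates 1 to 4. It was at 1312, 706, 773 and 681 units in acetate replicates 1 to 4. Each acetate library was below its vehicle partner, while the groups overlapped because both libraries of replicate 1 were high. The means were 1076 ± 309 units in vehicle and 868 ± 299 in acetate (SD, n = 4). The log2 change was -0.33 with a blocked SE of 0.04 (95% interval -0.41 to -0.24), a fold of 0.798, and the adjusted p was 0.00076 in the blocked limma fit. Within pairs it ran from -0.39 to -0.23.

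Gclm (ENSMUSG00000028124, chr3:122245557-122270732, plus strand), whose promoter is printed above, moved the same way. Vehicle replicates 1 to 4 held 1809, 1095, 1133 and 1109 units of Gclm. Acetate replicates 1 to 4 held 1577, 935, 1014.5 and 949. Replicate 1 was again the high pair, and the acetate library was the lower of every pair. The means were 1286.5 ± 348 and 1119 ± 307 units (SD, n = 4), the log2 change -0.20 (blocked SE 0.03, interval -0.28 to -0.13), the fold 0.869 and the blocked limma adjusted p 0.0038. Gclc and Gclm passed the threshold in the blocked fit under every alternative tried, without each replicate in turn included. The exons of Gclm share 296 bases with Gm17494 on the opposite strand (mean 129 units) and 244 bases with the pseudogene Gm6061 on the same strand (3.6 units).

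The ratio of Gclc to Gclm, which needs no scaling between libraries, was 0.850, 0.847, 0.846 and 0.794 in vehicle replicates 1 to 4. In acetate replicates 1 to 4 it was 0.832, 0.755, 0.762 and 0.717. It was lower with acetate in 4 of 4 pairs, by 0.12 on the log2 scale on average (SD 0.06). An exact paired permutation test gave a two-sided p of 0.125, the smallest that 4 pairs allow. The ratio of replicate 1 did not stand apart in vehicle, where both genes were high alike. In acetate it was the highest, at 0.832, and in vehicle replicate 4 was the lowest, at 0.794.

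Gsr encodes glutathione reductase, which returns oxidised glutathione to its reduced form with NADPH. Gsr (ENSMUSG00000031584, chr8:33652523-33698163, plus strand) was at 2822, 2937, 2784 and 3470 units in vehicle and at 2881, 3002, 2879 and 3509 in acetate replicates 1 to 4. The acetate library was the higher of each pair by 0.02 to 0.05 on the log2 scale. The mean change of 0.03 (interval -0.03 to 0.09) did not pass (blocked limma adjusted p 0.542).

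The regulators changed little. Nfe2l2 (ENSMUSG00000015839, chr2:75675513-75704641, minus strand) was at 1722, 2453, 2259 and 3329.7 units in vehicle replicates 1 to 4. In acetate replicates 1 to 4 it was at 1895, 2667, 2546 and 3515. Every pair was higher with acetate, and the groups overlapped because replicate 1 was low and replicate 4 high in both. The means were 2441 ± 668 and 2656 ± 666 units (SD, n = 4). The log2 change of 0.13 (blocked SE 0.03, interval 0.06 to 0.19), a fold of 1.09, had a blocked limma adjusted p of 0.0193. It kept the call without replicate 1 (adjusted p 0.0413) and lost it in other settings: the adjusted p was 0.10 without replicate 2, 0.135 without replicate 3, 0.058 without replicate 4 and 0.128 in DESeq2 with the block, with log2 changes of 0.11 to 0.14.

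Keap1 (ENSMUSG00000003308, chr9:21229730-21239361, minus strand) encodes the adaptor that hands Nrf2 to the ligase. It was at 1477, 1735, 1781 and 2149 units in vehicle and 1419, 1665.5, 1763 and 1844 in acetate replicates 1 to 4. All 4 pairs were lower with acetate, and replicate 4 made most of the mean difference, with -0.22 against -0.06 to -0.02 in the other pairs. The log2 change of -0.09 (interval -0.17 to -0.01) did not pass (blocked limma adjusted p 0.19). Without replicate 4 it was -0.04. Its exons share 510 bases with the antisense transcript Gm16754 (mean 177.5 units), and since strand in the counting is not stated, reads of the pair cannot be told apart.

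Txnrd1, Srxn1 and G6pdx serve the thioredoxin side of the response and the NADPH that drives it. Txnrd1 (ENSMUSG00000020250, chr10:82833951-82897712, plus strand) encodes cytosolic thioredoxin reductase. It stood at 7573, 4699, 4627 and 4594 units in vehicle and 7642, 4715, 4615 and 4409 in acetate replicates 1 to 4. Replicate 1 was 1.63 times the mean of the other replicates in vehicle and 1.67 times in acetate, while within pairs the log2 change stayed between -0.06 and 0.01. The mean change was -0.01 (interval -0.07 to 0.05, blocked limma adjusted p 0.863), so a change of Txnrd1 as large as the mean change of Gclm lies outside its interval.

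Srxn1 (ENSMUSG00000032802, chr2:152105516-152111376, plus strand) encodes sulfiredoxin, which repairs over-oxidised peroxiredoxins. Its values were the closest together of the 10: 596, 645, 659 and 639 units in vehicle and 607, 623, 657 and 617 in acetate replicates 1 to 4. The groups lay over each other, with a log2 change of -0.02 (interval -0.11 to 0.07, blocked limma adjusted p 0.831).

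G6pdx (ENSMUSG00000031400, chrX:74409483-74429194, minus strand) encodes glucose-6-phosphate dehydrogenase, the entry enzyme of the pentose phosphate pathway. Vehicle replicates 1 to 4 had 2449.9, 2169.8, 2192.5 and 2771 units of it, and acetate replicates 1 to 4 had 2416, 2339, 2284 and 2741. Pairs 2 and 3 were higher and pairs 1 and 4 lower with acetate, and the mean log2 change was 0.03 (interval -0.04 to 0.10, blocked limma adjusted p 0.604). Its exons share 418 bases with Ikbkg on the opposite strand (mean 862 units). The intronless copy G6pd2 was at 0.682 to 4.31 units.

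Nqo1 and Hmox1 are the targets most often used as reporters of Nrf2. Nqo1 (ENSMUSG00000003849, chr8:107388225-107403206, minus strand) encodes a quinone reductase. It was at 142, 126, 147 and 219 units in vehicle and 141, 139, 151 and 209 in acetate replicates 1 to 4. Replicate 4 was the high pair in both groups, and acetate was the higher of a pair in 2 of 4. The log2 change was 0.03, with an interval from -0.14 to 0.19 (blocked limma adjusted p 0.894).

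Hmox1 (ENSMUSG00000005413, chr8:75093621-75100589, plus strand) encodes haem oxygenase 1, which opens the haem ring. Hmox1 stood at 368, 276, 296 and 339 units in vehicle replicates 1 to 4 and at 441, 342, 359.6 and 336 in acetate replicates 1 to 4. In pairs 1 to 3 the acetate library was higher by 0.26 to 0.31 on the log2 scale, and in pair 4 the libraries were nearly level (-0.02). The means were 319.6 ± 41.7 and 369 ± 48.8 units (SD, n = 4). The log2 change of 0.21 (blocked SE 0.06, interval 0.07 to 0.35) had a blocked limma p of 0.0068 and an adjusted p of 0.0671, which missed the threshold. It passed with genes of a mean under 10 units left out (adjusted p 0.0409) and without replicate 4 (log2 change 0.28, adjusted p 0.0486).

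**Figure D2:**
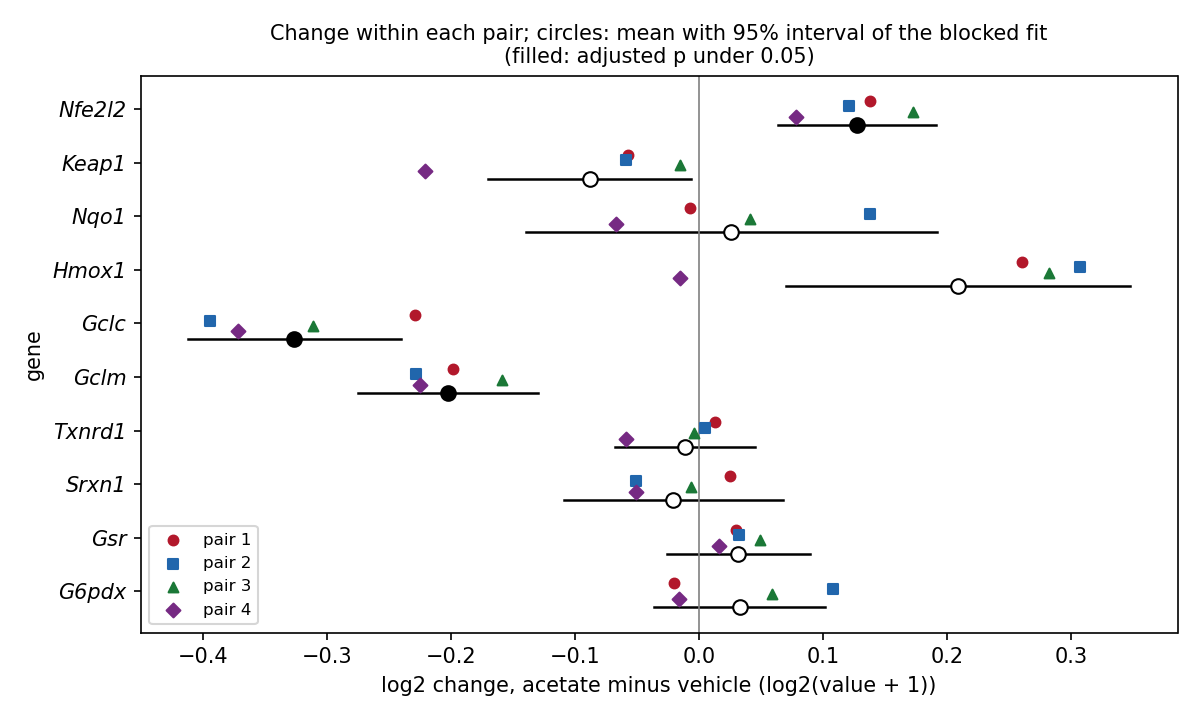
Log2 change of each of the 10 genes, acetate minus vehicle, on the log2(value + 1) scale, with the 4 within-pair changes as points and the mean as a circle with its 95% interval from the blocked fit, filled where the adjusted p was under 0.05. The intervals of Gclc and Gclm lie below 0, those of Nfe2l2 and Hmox1 above it and that of Keap1 ends just below it, and those of the other 5 genes cross it.

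Experiments differed from each other more than acetate differed from vehicle. The replicate number held a median of 91.8% of the variance of the 10 genes and treatment 4%, close to the 92.4% and 2.6% of all genes with a mean of at least 100 units. Gclc, Gclm and Txnrd1 were high together in replicate 1: its vehicle value was 1.67, 1.63 and 1.63 times the mean of the other replicates. Nfe2l2 and Keap1 were low there, at 0.643 and 0.782 times, Hmox1 was at 1.21 times, and Nqo1, Srxn1, Gsr and G6pdx were at 0.866, 0.920, 0.921 and 1.03 times. In the acetate libraries these ratios ran from 0.651 times for Nfe2l2 to 1.82 times for Gclc. The experiment with the least Nfe2l2 RNA was thus the one with the most Gclc, Gclm and Txnrd1. Replicate 4 was high for Nqo1, at 1.61 times the mean of replicates 2 and 3 in vehicle, and for Nfe2l2, at 1.41 times. G6pdx, Keap1, Gsr and Hmox1 were at 1.27, 1.22, 1.21 and 1.19 times, while Gclc, Gclm, Txnrd1 and Srxn1 were at 0.934 to 0.995 times. These ratios describe 4 experiments, and what set them apart was not tested.

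**Figure D3:**
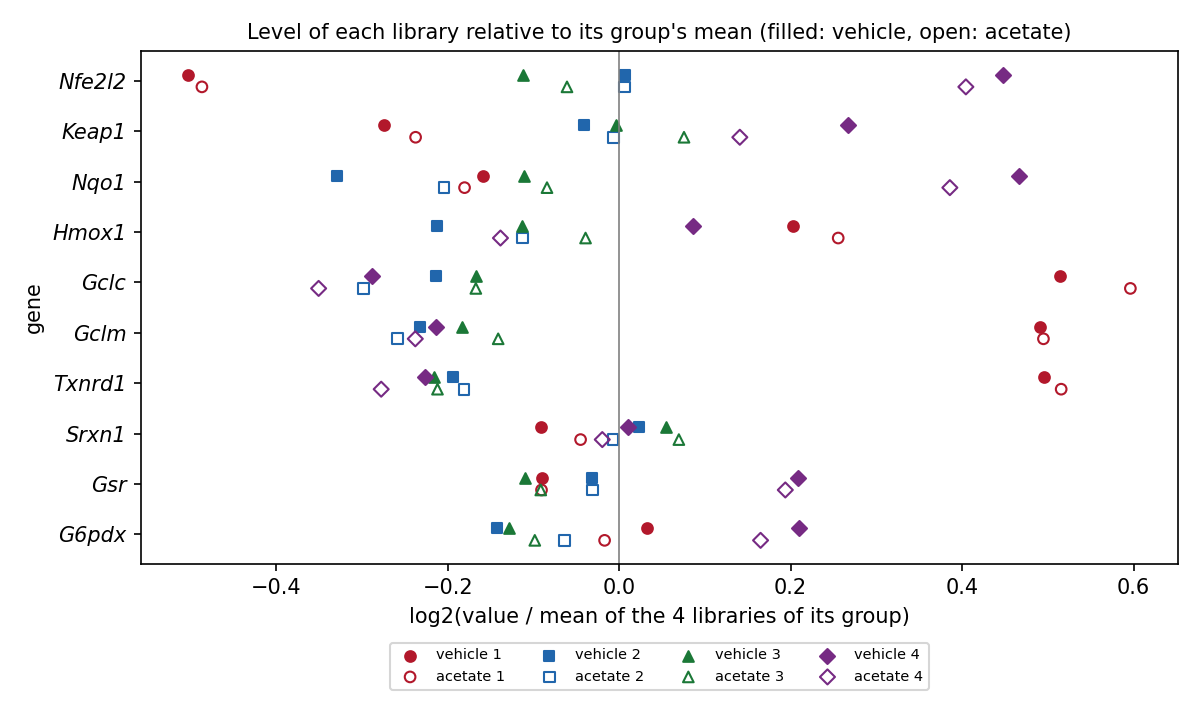
Level of each of the 10 genes in each library as log2 of its value over the mean of its own group, with filled symbols for vehicle, open symbols for acetate and 1 shape per replicate number. Gclc, Gclm and Txnrd1 are highest in replicate 1, where Nfe2l2 is lowest, and the vehicle and acetate symbols of a number lie near each other, less so for replicate 4 of Hmox1.

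Per kilobase of merged exon, the vehicle levels fell in the order Gsr (1090.4 ± 115 units per kb), G6pdx (778 ± 91.2), Txnrd1 (758 ± 207), Nfe2l2 (643 ± 176), Keap1 (380.5 ± 59.0), Gclc (286 ± 82.1), Srxn1 (225 ± 9.66), Gclm (204.5 ± 55.4), Hmox1 (183 ± 23.8) and Nqo1 (102 ± 26.6; SD, n = 4). Neighbours in this order differed by more than their SDs in 3 places, between Gsr and G6pdx, between Nfe2l2 and Keap1, and between Hmox1 and Nqo1. All other neighbours overlapped within 1 SD. With acetate the levels per kb were 1114 for Gsr and 103 for Nqo1 at the ends, and Gclc came to 230.5 and Gclm to 178. On this scale the recycling enzyme Gsr had the highest mean of the 10 and the common reporter Nqo1 the lowest. Merged exons join all annotated transcripts of a gene, 7086 bases for Txnrd1 and 2754 for Gsr, so the order depends on the annotation. Before division the vehicle mean was 5373 units for Txnrd1 and 3003 for Gsr. Which transcripts the cells made was not tested.

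The wider pathway was read from a list of 55 other genes, 51 of which had a mean of at least 100 units. In limma 0 of the 55 passed if the replicate number was left out, with none at 0.05 before adjustment either. With it as a term 19 passed, 15 higher and 4 lower, which is 34.5% of the list. The share was 8.64% of all genes and 15% of genes with a mean of at least 100 units. The list was drawn up with earlier results of these data known, so its share is a description and no test of the pathway. The count moved with the libraries used, from 5 without replicate 3 to 16 without replicate 1, with 9 without replicate 2 and 7 without replicate 4. Calls over all 20189 genes moved too, from 1744 to 409 without replicate 3, 1662 without replicate 1, 617 without replicate 2 and 539 without replicate 4. With median-of-ratios scaling the list had 10 higher and 5 lower. In direction alone, 22 were higher and 7 lower in 4 of 4 pairs, against 16.7% and 11.4% of all genes. Of the 10292 genes with a mean of at least 100 units, 2226 were higher and 1874 lower in 4 of 4. Over the 55 genes the median change on the log2 scale was 0.06, beside 0.018 over all genes.

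Among regulators of the Nrf2 protein and its DNA binding 1 of 8 passed, Bach1, the repressor that competes with Nrf2 for its sites. That is 12.5%, near the 15% of all genes with a mean of at least 100 units. Bach1 went from 1043 ± 252 to 1155 ± 282 units (SD, n = 4), a log2 change of 0.15 with a blocked limma adjusted p of 0.0231. The ligase scaffold Cul3 was at 4178 ± 269 and 4089 ± 311 units. The autophagy adaptor Sqstm1, which binds Keap1, was at 7856 ± 2822 and 7627 ± 2509 units.

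Of 12 genes for glutathione supply, use and conjugation, 7 passed, 5 higher and 2 lower. That is 58.3%, beside 8.64% of all genes and 15% of genes with a mean of at least 100 units. The lower genes were Gpx1 and Slc7a11. Gpx1, glutathione peroxidase 1, which spends glutathione on hydrogen peroxide, was at 3601, 2397, 3070.1 and 2337 units in vehicle and 3104, 2100.05, 2385 and 1758 in acetate replicates 1 to 4. Its log2 change was -0.29 (SE 0.04) with a blocked limma adjusted p of 0.0013. Slc7a11, the cystine carrier that brings in the cysteine for glutathione, was at 651, 1501, 1627 and 1652 units in vehicle and 502, 1141, 1311 and 1569 in acetate replicates 1 to 4. Its log2 change was -0.29 (SE 0.05, adjusted p 0.0050), lower in all 4 pairs, and replicate 1 was low where Gclc and Gclm were high. It missed the threshold without replicate 2 (adjusted p 0.0505) or 3 (0.078). Gss, the synthetase that follows the ligase, was at 329.8 ± 50.9 and 342 ± 45.4 units and did not pass (adjusted p 0.657). Gpx4, the peroxidase of lipid peroxides, was at 4385 ± 1135 and 4502 ± 893 units and did not pass either (adjusted p 0.451).

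The higher genes of that list were conjugating enzymes and a glutaredoxin. Gstm1, a glutathione S-transferase, was at 17.6, 142, 125 and 321 units in vehicle and 36.9, 246, 208 and 449 in acetate replicates 1 to 4. Acetate was the higher of each pair by 0.49 to 1.03 on the log2 scale, and the vehicle library of replicate 1 held 0.0897 times the mean of the other 3. The log2 change was 0.76 (SE 0.10, blocked limma adjusted p 0.0011), and 0.67 without replicate 1. Mgst1, a membrane-bound transferase, rose from 569 ± 471 to 691 ± 481 units (log2 change 0.48, adjusted p 0.0238, and 0.28 without replicate 1), and Gsta4, which conjugates lipid aldehydes, from 172 ± 114 to 226 ± 145 (0.40, adjusted p 0.0081). Mgst1 missed the threshold without replicate 2, 3 or 4 (adjusted p 0.0656, 0.155 and 0.0764), and Gsta4 without replicate 3 or 4 (0.071 and 0.0806). Glrx (log2 change 0.32, adjusted p 0.0108) and Gstp1 (0.16, adjusted p 0.0451) also passed.

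Detoxifying enzymes of quinones, aldehydes and other foreign compounds had 4 of 10 higher and none lower. These made 40%, beside 8.64% of all genes and 15% of genes with a mean of at least 100 units called in either direction. Ptgr1, which reduces reactive enones, was at 224, 709, 612 and 924 units in vehicle and 341, 902, 876 and 1157 in acetate replicates 1 to 4. Its log2 change was 0.45 (SE 0.05, blocked limma adjusted p 0.00065). Ephx1, the microsomal epoxide hydrolase, was at 16.8, 110, 94.5 and 265 units in vehicle and 23.5, 187, 162 and 406 in acetate replicates 1 to 4 (0.65, adjusted p 0.0022). Both were lowest in replicate 1 in either group. Aldh3a1, an aldehyde dehydrogenase, rose from 133 ± 110 to 201 ± 157 units (0.59, adjusted p 0.0040) with a vehicle value in replicate 1 of 0.0752 times the mean of the others. Aldh3a1 missed the threshold without replicate 3 (adjusted p 0.054) or 4 (0.0643), and Ephx1 without replicate 4 (0.0511). Without replicate 1 the changes were 0.40 for Ptgr1, 0.72 for Ephx1 and 0.63 for Aldh3a1, and all 3 passed. Akr1b8 passed too (0.15, adjusted p 0.0283), while Nqo2, the relative of Nqo1, was at 548 ± 136 and 577 ± 119 units and did not (adjusted p 0.303).

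In the thioredoxin and peroxiredoxin system 2 of 9 passed, or 22.2%, beside 15% of genes with a mean of at least 100 units. They were Prdx1 (log2 change 0.12, blocked limma adjusted p 0.0090) and Prdx2 (0.11, adjusted p 0.0426), both abundant peroxide-reducing enzymes. Their cytosolic electron donor Txn1 was at 7951 ± 1663 and 8185 ± 1595 units and did not pass. Of 6 genes for NADPH supply 2 passed (33.3%). Taldo1, transaldolase, rose from 2230 ± 286 to 2558 ± 337 units (0.20, adjusted p 0.0021). Pgls, the lactonase just after G6pdx, fell from 943 ± 189 to 829 ± 105 (-0.17, adjusted p 0.0431), a call lost without replicate 2, 3 or 4 (adjusted p 0.179 to 0.244). Of 6 genes for haem and iron 1 passed, or 16.7%, near the 15% of genes with a mean of at least 100 units. Fth1, the heavy chain of ferritin, fell from 24707 ± 3832 to 22217 ± 2419 units (-0.15, adjusted p 0.0161), a call also lost without replicate 2, 3 or 4 (0.0629 to 0.156). The peroxide-splitting catalase Cat (0.12, adjusted p 0.0468) was 1 of 3 in its group to pass (33.3%), and the feedback gene Osgin1 (0.19, adjusted p 0.0442) passed as well. Calls of the smaller rises (Bach1, Glrx, Gstp1, Akr1b8, Prdx1, Prdx2, Taldo1, Cat and Osgin1) were not followed gene by gene. Without replicate 3 the whole list had 4 higher genes, Gstm1, Ephx1 and Ptgr1 among them, so most of these smaller rises lost their call.

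**Figure D4:**
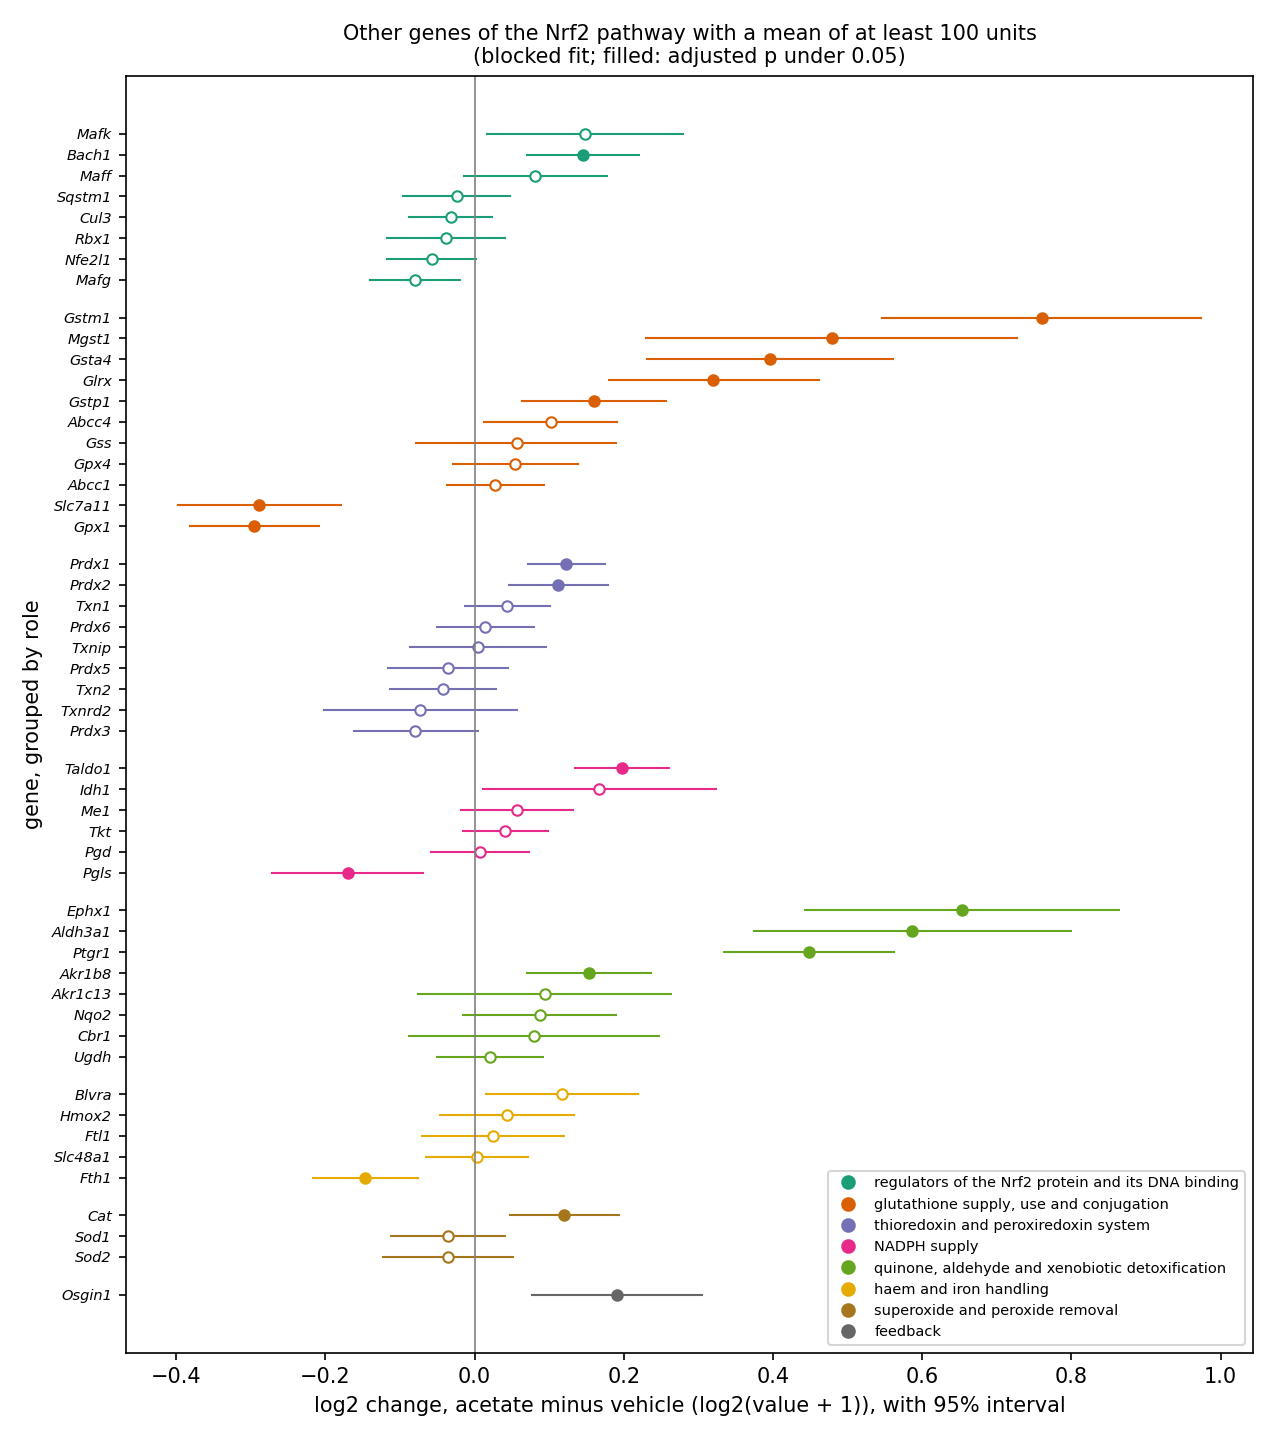
Log2 change with the blocked 95% interval for the 51 genes of the pathway list with a mean of at least 100 units, coloured by role, acetate minus vehicle on the log2(value + 1) scale, with filled circles for genes past the blocked threshold. The largest filled rises are Gstm1, Ephx1 and Aldh3a1 and the largest filled falls Gpx1 and Slc7a11.

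Marker genes moved beside these changes. Fibroblast markers (Pdgfra, Pdgfrb and Dcn, 3 of 3 in the table) summed to 229 to 1523 units in vehicle and 394 to 1998 in acetate libraries, higher with acetate in 4 of 4 pairs and lowest in replicate 1, as for Gstm1, Ephx1 and Aldh3a1. Nearly all of that sum was Pdgfra, with Dcn at most at 14.5 units and both Dcn and Pdgfrb listed at 0 in vehicle replicate 1. Of the 5 epithelial markers, Krt19 (log2 change 0.40, blocked limma adjusted p 0.00025) and Cdh1 (0.15, adjusted p 0.0059) rose, while Epcam (0.07, adjusted p 0.154), Krt8 (-0.06, adjusted p 0.214) and Krt18 (-0.05, adjusted p 0.363) did not pass. Krt19 was likewise lowest in replicate 1. The part of these differences in the results above was not tested.

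The genes whose within-pair pattern was most like that of Nqo1 were Anp32e, Ly75, Slc5a6, Rab8b and Abracl. Their Pearson r with Nqo1 was 0.981 to 0.994 over the 8 libraries after the mean of each replicate number was taken out, among genes with a mean of at least 100 units. That leaves 4 pair differences from libraries of shared depth, so the r is a description. None of these genes passed with the block, at log2 changes of 0.01 to 0.08.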

How the data were processed

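Poly-A RNA of 4T1 cells was sequenced from stranded libraries, and the authors aligned reads to GRCm38 and counted them per gene (STAR, with HTSeq also in the submitters' processing notes, versions not given in the sources used here). Whether counting used strand is not stated. What the authors deposited is a signal, read counts divided by library size. Each library sums to 20000000 within rounding, and genes were all above 0 in at least 4 of the 8 libraries. All values were whole multiples of 1 read (100% within 0.02 of a read), which gave back 19.9 to 29.3 M reads (M, mega) per library. A read of vehicle replicate 3 equalled 1.0053 units, which a unit check cannot separate from rounded values.

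Identifiers were matched to GENCODE M21 (GRCm38), 20004 of 20189 with a symbol. Values were taken as log2(value + 1), a scale that understates changes of low genes, and tested two-sided for acetate against vehicle with the trended eBayes of limma 3.58.1 in R 4.3.3. All 20189 genes entered, p-values were adjusted by Benjamini-Hochberg, and 0.05 was the threshold. The main fit had no block and a second fit had the replicate number as one. Libraries of 1 number carry the same code in the labels, and the pairing was taken from these labels. What remained after subtracting group means correlated at 0.81, 0.27, 0.20 and 0.69 for replicates 1 to 4. Correlations between libraries of different numbers were not computed, so these values have no baseline and do not test the pairing. All calls of the blocked fit rest on the pairing given by the labels.

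The members and lists were chosen with earlier results of these data known. Named were the 10 members, then pathway genes with a mean of at least 100 units that passed with the block and went 1 way in 4 of 4 pairs (at most the 6 largest rises and 6 largest falls), and the 5 genes most like Nqo1. Other pathway genes are given as examples of their role, chosen after their values were seen. Alternatives were pseudocounts of 0.1 and 5, a filter on a mean of 10 units, median-of-ratios scaling, edgeR 4.0.16 and DESeq2 1.42.0 on recovered reads, leaving out libraries or pairs, and, chosen after seeing the data, edgeR on the 7 libraries without vehicle replicate 3. The fits were tested on simulated data. Motifs were searched in RefSeq windows (GRCm38.p6).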

Additional observations from a re-analysis of the deposited data

Results flagged for a closer look

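In 4 genes replicate 1 lay far from the other 3 libraries of its group, by the gap to the nearest library as a share of the group's whole range, which passed Dixon's 95% critical value for 4 libraries. For Gclc this share was 0.881 in vehicle, where replicate 1 was at 1538 units and the others at 881 to 959, and 0.854 in acetate, at 1312 against 681 to 773. For Gclm it was 0.947 in vehicle and 0.877 in acetate, and for Txnrd1 0.965 and 0.905, with replicate 1 the highest each time. For Slc7a11 replicate 1 was the lowest in vehicle, with a share of 0.849 at 651 units against 1501 to 1652. These are 7 of 40 groups (20 named genes in 2 groups of libraries). Chance would give about 1 in 20, or 2, if the groups were independent, which vehicle and acetate libraries of 1 replicate are not. The share over all genes was not computed, so the count does not set these genes apart from others. Without replicate 1 the blocked log2 changes were -0.36 for Gclc and -0.02 for Txnrd1. What set replicate 1 apart was not tested.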

How the results depend on the processing

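The replicate block decided the calls: it took the count from 0 to 3 of the 10 genes and from 0 to 19 of the 55 pathway genes, and 0 passed in either list without it. With the block, edgeR on 7 libraries called 9 pathway genes (1350 of all genes), and leaving out 1 replicate gave 5 to 16 (409 to 1662 of all genes, against 1744). Of the 10 genes, 2 to 4 passed with the block under each alternative, Gclc and Gclm always among them, and edgeR on 7 libraries lost Nfe2l2 (adjusted p 0.195), Mgst1 (0.0662) and Pgls (0.105), the last 2 also lost with a pseudocount of 0.1 (0.0567 and 0.0683). Over all genes median-of-ratios scaling with the block called 1000 higher and 821 lower, against 1209 and 535, and moved the median change by -0.019. Directions turned for small changes, and for larger ones too when 1 library was left out with no block. Nqo1 was at -0.005 in edgeR, -0.008 in DESeq2 and -0.058 in edgeR on 7 libraries without the block, and at -0.004 and -0.012 in edgeR on 8 and 7 libraries with it. In edgeR on 7 libraries without the block Gsr was at -0.041 and G6pdx at -0.050. With 1 library left out and no block, which unpairs its partner, log2 changes ran from -0.027 to 0.29 for Nfe2l2, -0.175 to 0.005 for Keap1, -0.109 to 0.192 for Nqo1, -0.196 to 0.165 for Txnrd1, -0.035 to 0.103 for Gsr, -0.023 to 0.105 for G6pdx, -0.058 to 1.488 for Gstm1, -0.094 to 1.464 for Ephx1, -0.291 to 1.511 for Aldh3a1, -0.258 to 1.02 for Mgst1 and -0.61 to 0.062 for Slc7a11, with a library of replicate 1 or 4 left out at both ends of each range. In the same settings, without a turn, Gclc ran from -0.543 to -0.142, Gclm from -0.379 to -0.027, Ptgr1 from 0.019 to 0.825 and Gsta4 from 0.014 to 0.788. With the block and 1 pair left out, log2 changes ran from -0.011 to 0.057 for Nqo1 and -0.019 to 0.005 for Txnrd1. No other member or named pathway gene turned there, and the 5 genes most like Nqo1 were not run in these settings. Apart from the calls given with the genes, the cause of these moves was not tested.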
